A study of Homo sapiens with 6 samples.

Results

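Genes of calcium entry and calcineurin signalling were followed in a human podocyte cell line, HPC: the channels TRPC1 and TRPC6, the store-operated entry genes ORAI1, STIM1 and STIM2, the calcineurin subunits PPP3CA and PPP3CB, the transcription factor NFATC1 and the calcineurin inhibitor RCAN1. They were chosen by gene symbol, 9 of the 34644 gene names in the deposited tables, and fill 10 of the 38648 listings because ORAI1 is listed at 2 places. The cells, labelled WT in genotype and cultured in RPMI-1640 with fetal bovine serum, were all kept in high glucose. One group received a control lentivirus, labelled NC, and the other a lentivirus for PRDM16, a zinc finger transcription factor. There were 3 libraries per group, all with 24 h in their titles, and since no label ties a library to a culture of its own, p-values rest on a spread that may be only technical. Cultures in normal glucose were not analysed here, and neither the promoter driving PRDM16 nor the dose of virus is given in the sources used here.

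Podocytes are kidney epithelial cells whose foot processes wrap the capillaries of the filter, and too much calcium inside them is a known route to the loss of these processes. TRPC channels let calcium in after receptors activate phospholipase C, and inherited TRPC6 mutations that increase the current cause a scarring kidney disease. When the endoplasmic reticulum runs low on calcium, STIM proteins in its membrane open ORAI channels at the cell surface. The calcium that enters binds calmodulin, which activates the phosphatase calcineurin. Calcineurin removes phosphates from NFAT factors, which then enter the nucleus, and NFAT in turn raises RCAN1, which inhibits calcineurin.

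Of the 10 listings of these genes, 8 had enough counts to be tested, and none differed between PRDM16 and NC by the edgeR test (0 of 8, where 0.0650% of all 15381 genes tested passed at an adjusted p under 0.05). ORAI1 had the largest difference, higher in every PRDM16 library, and passed only under some other settings. TRPC1, STIM2 and PPP3CA had lower means with PRDM16, STIM1 and NFATC1 higher ones, and RCAN1 differed least in the main edgeR test. TRPC6, the channel best known from podocyte disease, had no counts. The members richest in GC had the highest fold changes, as was so over all genes.

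The libraries held between 20147135 and 41280350 gene counts. PRDM16 had 0 counts in each NC library and 11, 18 and 24 in the PRDM16 libraries. Of the 10 podocyte markers checked, only PODXL, CD2AP and SYNPO were at 1 TPM or more in every library, and 5, among them NPHS1 and WT1, had at most 4 counts in any of them. TPM is a transcript level scaled by gene length and library total. The sum of the 10 podocyte markers ran from 149 to 205 TPM with NC and from 119 to 142 with PRDM16, without overlap. PODXL had 52.9, 62.7 and 58.7 TPM in the NC replicates and 49.0, 49.3 and 49.5 in the PRDM16 replicates. CD2AP had 89.6, 134 and 81.9 TPM with NC and 69.8, 62.8 and 83.5 with PRDM16, with overlap. These differences were not tested. Of 8 markers of parietal and tubular epithelium, 6 were at 1 TPM or more in every library, including PAX8 at 135 to 178 TPM. The others were LRP2, at 0 in all 6 libraries, and CDH1, at 0.342 to 0.636 TPM. The sum of the 8 ran from 3415 to 3589 TPM with NC and from 3495 to 3754 with PRDM16. Most of it came from the keratins KRT8 (1502 to 1858 TPM) and KRT18 (1155 to 1313 TPM). Of 8 markers of lymphoid and myeloid cells, where calcineurin and NFAT are best known, 0 reached 1 TPM in every library, their sum ran from 1.70 to 2.76 TPM with NC and from 1.82 to 2.71 with PRDM16, and the T cell marker CD3E was at 0 in all 6.

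RCAN1 is shown first as sequence, because it is both an inhibitor of calcineurin and a gene that NFAT raises, and it can start at several places. The 2 stretches below, from RefSeq (GRCh38.p14, minus strand), run from 250 bases before to 50 bases after a start, at chr21:34615064-34615363 for an upstream start and chr21:34526773-34527072 for an internal one. At each of these starts the deposited table also lists an exon of RCAN1 beginning. Capitals mark the core letters that NFAT binds, GGAAA, or TTTCC where the motif lies on the other strand.
RCAN1 upstream start: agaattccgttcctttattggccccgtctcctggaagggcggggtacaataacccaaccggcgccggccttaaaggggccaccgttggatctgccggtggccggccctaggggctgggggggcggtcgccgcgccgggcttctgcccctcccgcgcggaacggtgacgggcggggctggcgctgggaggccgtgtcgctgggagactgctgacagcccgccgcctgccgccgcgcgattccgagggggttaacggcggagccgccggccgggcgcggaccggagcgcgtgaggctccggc
RCAN1 internal start: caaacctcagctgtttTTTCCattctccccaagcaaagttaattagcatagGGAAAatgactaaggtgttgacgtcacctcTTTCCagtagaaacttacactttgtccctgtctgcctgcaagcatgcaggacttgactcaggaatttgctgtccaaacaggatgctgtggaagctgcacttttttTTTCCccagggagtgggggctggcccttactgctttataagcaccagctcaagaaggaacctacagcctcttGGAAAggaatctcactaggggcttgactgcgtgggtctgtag
The internal stretch held 5 such matches and the upstream one 0. The table has 6 starts of RCAN1, and the internal one shown was chosen for having the most matches. Of the others, 2 further upstream starts held 0 and 2 further internal starts held 1 each. At least 1 match was found in 61.2% of the 35116 promoter stretches in the table and 5 or more in 0.740%. A match is a description of the letters and does not show binding. The deposited tables give 1 count per gene, so reads from the 2 starts of RCAN1 cannot be told apart here. The TRPC6 stretch is shown as well, since it belongs to the podocyte disease gene of the set and had 2 matches (chr11:101583958-101584257, minus strand).
TRPC6: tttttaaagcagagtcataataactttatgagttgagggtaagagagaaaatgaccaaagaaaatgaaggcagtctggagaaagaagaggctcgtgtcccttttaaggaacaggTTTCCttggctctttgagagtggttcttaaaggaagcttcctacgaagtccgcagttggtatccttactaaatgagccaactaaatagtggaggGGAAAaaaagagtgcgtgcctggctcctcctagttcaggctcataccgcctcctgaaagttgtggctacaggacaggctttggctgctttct
Promoter sequences were found for 6 of the 9 genes.

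Of the 2 TRPC channels, TRPC6 was not detected. It had 0 counts in all 6 libraries, which allows at most 0.0727 to 0.149 CPM (counts scaled to a library total of 1000000) by library, taking 3 counts as the limit. TRPC6 lies on chromosome 11 at 101451470 to 101584007 (hg38, minus strand). TRPC1, a calcium-permeable cation channel subunit on chromosome 3 (142724034 to 142807888, plus strand), was present, with 24.1, 33.2 and 21.8 CPM in NC replicates 1, 2 and 3 and 20.7, 19.1 and 22.1 CPM in PRDM16 replicates 1, 2 and 3. The groups overlapped, and NC replicate 2 stood above the other 5 libraries. These CPM are scaled by TMM factors, which correct for differences in composition between libraries. The log2 fold change of TRPC1, PRDM16 over NC, was -0.36 ± 0.14 (SE), with an edgeR adjusted p of 0.298, and -0.15 without NC replicate 2. In bulk samples such as these, fewer cells with a transcript and less of it per cell cannot be told apart.

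Store-operated entry held the member with the largest difference, ORAI1, the pore of the channel. Its place on chromosome 12 (121626550 to 121642040, plus strand) had at most 3 counts in any library, and almost all its reads were counted at a second listing on a scaffold outside the chromosomes, which has 1496 listed bases against 1499. There ORAI1 had 109, 82 and 62 counts in the NC replicates and 142, 171 and 225 in the PRDM16 replicates. Scaled, this was 4.73, 2.85 and 2.98 CPM with NC and 7.39, 6.14 and 5.38 CPM with PRDM16. The lowest PRDM16 library was above the highest NC library. The log2 fold change was 0.84 ± 0.20 (SE) and did not pass over the 15381 genes tested (edgeR adjusted p = 0.160). It was 0.84 ± 0.20 with both places summed (edgeR adjusted p = 0.0782, where 0.120% of all genes passed). How reads matching both places were assigned is not given in the sources used here. Among 17 alternatives with a value for ORAI1, it passed in 3: with no filter on low counts (edgeR adjusted p = 0.00794), without NC replicate 3 (0.0490) and without PRDM16 replicate 2 (0.0343). In those 3 fits 0.400%, 1.09% and 0.380% of all genes tested passed.

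The 2 calcium sensors of the endoplasmic reticulum lay on opposite sides of 0. STIM1, the main activator of ORAI1 (chromosome 11, 3854604 to 4093210, plus strand), had 148, 113 and 131 CPM with NC and 160, 142 and 149 CPM with PRDM16. The groups overlapped, with NC replicate 2 the lowest of all 6. STIM2, which responds to smaller losses of stored calcium (chromosome 4, 26860841 to 27025381, plus strand), had 21.5, 25.6 and 20.9 CPM with NC and 18.4, 18.0 and 19.3 CPM with PRDM16. Every PRDM16 library lay below every NC library, and NC replicate 2 was the highest of all. The log2 fold changes were 0.20 ± 0.12 (SE) for STIM1 and -0.29 ± 0.13 for STIM2, and neither passed (edgeR adjusted p = 0.354 and 0.298). Without NC replicate 2 they were 0.11 and -0.19.

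Calcineurin is made of a catalytic subunit, here PPP3CA or PPP3CB, and a regulatory one. PPP3CA (chromosome 4, 101023418 to 101348295, minus strand) had 32.6, 40.7 and 32.4 CPM in the NC replicates and 28.0, 26.4 and 30.2 CPM in the PRDM16 replicates. The groups did not overlap, with PRDM16 lower and NC replicate 2 again the highest. PPP3CB (chromosome 10, 73436433 to 73496024, minus strand) had 29.1, 33.4 and 32.1 CPM with NC and 26.4, 32.4 and 27.8 CPM with PRDM16, and its groups overlapped. The log2 fold changes were -0.32 ± 0.13 (SE) for PPP3CA and -0.13 ± 0.12 for PPP3CB, neither of which passed (edgeR adjusted p = 0.298 and 0.564). Without NC replicate 2 they were -0.20 and -0.08, and PPP3CB was at -0.07 without PRDM16 replicate 1 and at -0.21 without PRDM16 replicate 2. PPP3CA and STIM2 were each other's nearest match in pattern over the 6 libraries among the members and the wider pathway, with a root mean square difference of 0.036 in centred log2 CPM. Both were highest in NC replicate 2. Some gene is always nearest, and such distances were not computed over all genes, so this shows no link between the 2.

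Some members share exon bases with an antisense gene, and whether strand was used in counting is not given in the sources used here. STIM1 shares 115 bases of 5934 with STIM1-AS1, which had 16 to 23 counts, and PPP3CB shares 13 bases of 4631 with PPP3CB-AS1, which had 128 to 253. NFATC1 shares 697 bases of 7487 with an uncharacterised antisense gene that had 0 counts in every library, and 56 with another that had 0 to 4.

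NFATC1, the NFAT factor among the members (chromosome 18, 79395930 to 79529323, plus strand), was scarce, with 23, 34 and 26 counts in the NC replicates and 35, 34 and 58 in the PRDM16 replicates. This was 0.999, 1.18 and 1.25 CPM with NC and 1.82, 1.22 and 1.39 CPM with PRDM16. The groups overlapped, since PRDM16 replicate 2 lay just under NC replicate 3. The log2 fold change was 0.35 ± 0.26 (SE), with an edgeR adjusted p of 0.445, and 0.20 without PRDM16 replicate 1.

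RCAN1 (chromosome 21, 34516442 to 34615123, minus strand) differed least between the groups in the main edgeR test. It had 168, 162 and 164 CPM with NC and 170.0, 163 and 167 CPM with PRDM16. The groups overlapped, and the group means, 164.7 ± 2.83 and 166.7 ± 3.76 CPM (SD, n = 3), differed by less than the spread between replicates. Its log2 fold change was 0.02 ± 0.11 (SE; edgeR adjusted p = 0.938), and leaving out single libraries gave values between 0.0037 and 0.038. With trends in gene length and GC content removed it was larger, 0.17 ± 0.083 (SE; edgeR adjusted p = 0.749). On log2(TPM + 1) it was -0.12 by limma (adjusted p = 0.417), a scale on which the median of all genes was -0.13.

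**Figure D1:**
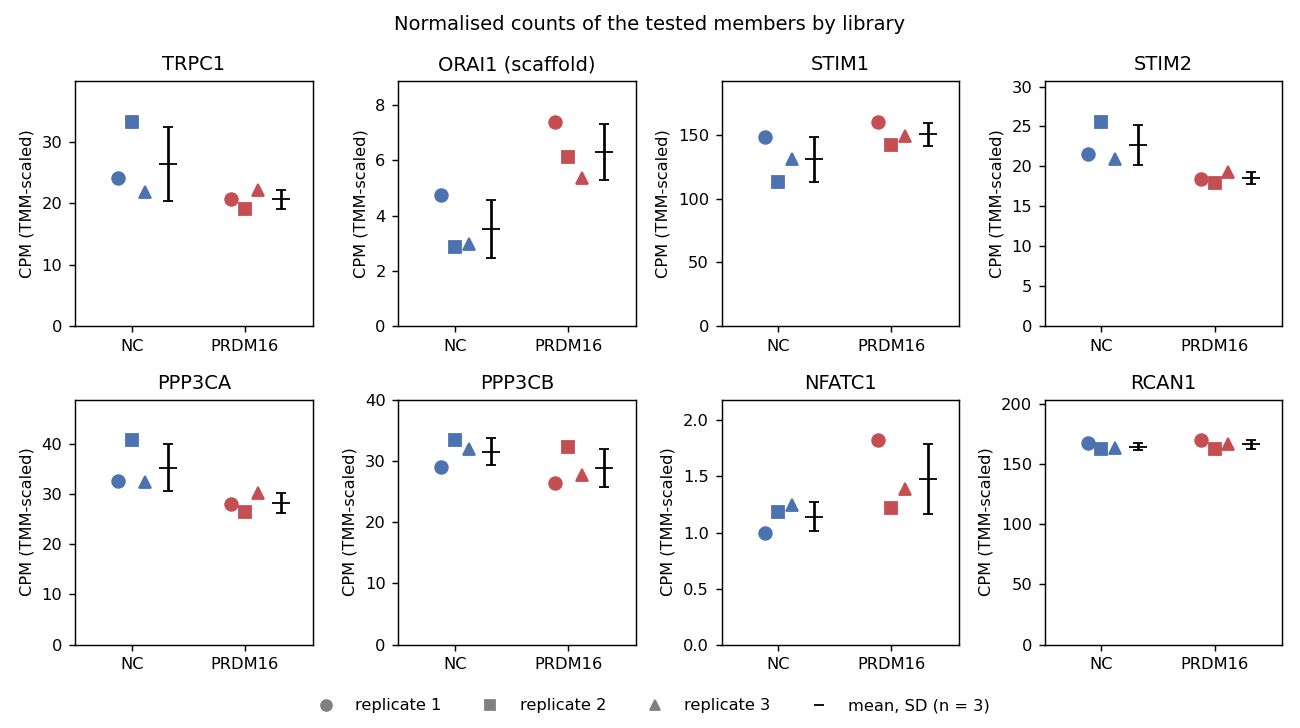
TMM-scaled CPM (vertical axis, from 0) of the 8 tested members in each library, by group; marker shape gives the replicate and bars the mean and SD (n = 3). The PRDM16 libraries of ORAI1 (5.38 to 7.39 CPM) all sit above the NC libraries, those of STIM2 and PPP3CA all sit below, and RCAN1 is level.

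Limma-voom (0.0455% of all genes passed) and DESeq2 (0.282%) also called 0 members. Of the 8 tested, 4 had an unadjusted p under 0.05, against 16.0% of all genes, with ORAI1 higher (9.23% of all genes were higher at that level) and TRPC1, STIM2 and PPP3CA lower (6.76%). Groups that do not overlap were seen in 3 of 8, against 21.0% of all genes tested, 1 higher (12.2%) and 2 lower (8.77%). Without NC replicate 2 the count at an unadjusted p under 0.05 was 1, ORAI1, with 7.30% of all genes at that level, and 0 passed (0.0583% of all genes). Without PRDM16 replicate 2, ORAI1 was also the only member at that level. TRPC1, STIM2 and PPP3CA then had log2 fold changes of -0.30, -0.26 and -0.27. The other fits that leave out 1 library kept 2 or 3 members lower at that level. The median log2 fold change of the 8 was -0.06, and that of all genes tested -0.02.

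The differences between members ran along base composition more than along length. Over all 15381 genes, cut into 5 equal classes by the summed length of listed exons, the class medians of the log2 fold change ran from 0.15 for the shortest genes to -0.17 for the longest. In the same way over the 13892 genes with a GC value, they ran from -0.21 for the class poorest in GC to 0.24 for the richest. Both trends were weaker without NC replicate 2. The medians of the same classes then ran from 0.11 to -0.08 by length and from -0.07 to 0.18 by GC. Across the 8 tested members the log2 fold change had a Spearman's rho of -0.26 with length and 0.88 with the GC content of their transcripts, a description over 8 genes that share the same 6 libraries. ORAI1 (65.8% GC) and NFATC1 (60.4%) were highest in both GC and fold change, STIM1 (52.5%) came next, and TRPC1 (38.9%) was lowest in both. STIM2 (46.5%) and PPP3CA (42.7%) stood lower than members that are poorer in GC. Without NC replicate 2 the members' rho with GC content was 0.74, and with the length and GC trend removed it was 0.69. Over all genes with a GC value, rho was 0.64 with all libraries, 0.45 without NC replicate 2 and 0.06 with both trends removed.

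Each member was also set beside all genes of its length class. ORAI1, with 1496 listed bases, had a larger log2 fold change than 98.6% of the genes in its length class, where the median was 0.15. NFATC1 is in the class of the longest genes (7487 bases, median -0.17), but its fold change was above that of 98.6% of them. STIM1 (5934 bases) stood above 86.8% of its class and STIM2 (5096 bases) above 13.1% of the same class, although the lengths of this pair are close. TRPC1, the longest member with 9702 bases, stood above 10.9% of its class. PPP3CA (4843 bases) stood above 7.02% of its class, PPP3CB (4631 bases) above 33.4% and RCAN1 (6060 bases) above 66.2%. Within the GC classes, ORAI1 stood above 98.3% of its class, STIM1 above 87.5%, NFATC1 above 80.9% and RCAN1 above 80.6%. PPP3CB stood above 73.1% there, PPP3CA above 17.4%, STIM2 above 14.1% and TRPC1 above 11.2%.

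Trends were also removed in the model, for length alone and for length and GC together, but not for GC alone. Most members moved further when both were removed, though STIM1 did not. With the length trend removed, the log2 fold change of TRPC1 went from -0.36 to -0.22, that of ORAI1 from 0.84 to 0.72 and that of NFATC1 from 0.35 to 0.45, while PPP3CA (-0.29) and STIM2 (-0.25) moved by less than 0.05. In that fit 4 of 8 members had an unadjusted p under 0.05, against 12.7% of all genes, ORAI1 and STIM1 higher and STIM2 and PPP3CA lower, and 0 passed (0.0520% of all genes). With the length and GC trend removed together, TRPC1 was at -0.08, PPP3CA at -0.16, STIM2 at -0.18 and PPP3CB at 0.04, and ORAI1 at 0.50. STIM1 was at 0.23 and RCAN1 was at 0.17. In that fit 2 of 8 members had an unadjusted p under 0.05, ORAI1 and STIM1, both higher, against 6.55% of all genes, and 0 passed (edgeR adjusted p of at least 0.749 for each member, with 0.0360% of all genes passing).

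**Figure D2:**
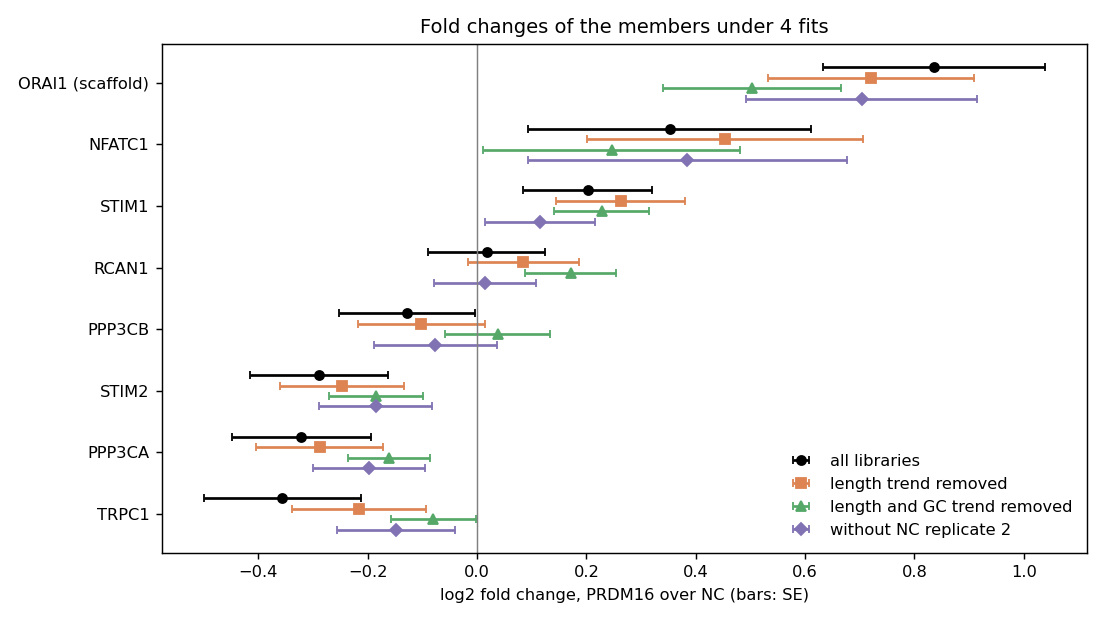
Log2 fold change, PRDM16 over NC (horizontal axis, bars are SE), of each tested member in all libraries, with the length trend removed, with the length and GC trend removed, and without NC replicate 2. TRPC1 moves from -0.36 to -0.08 when both trends are removed, and STIM1 lies at 0.20 with all libraries, 0.23 with both trends removed and 0.11 without NC replicate 2.

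**Figure D3:**
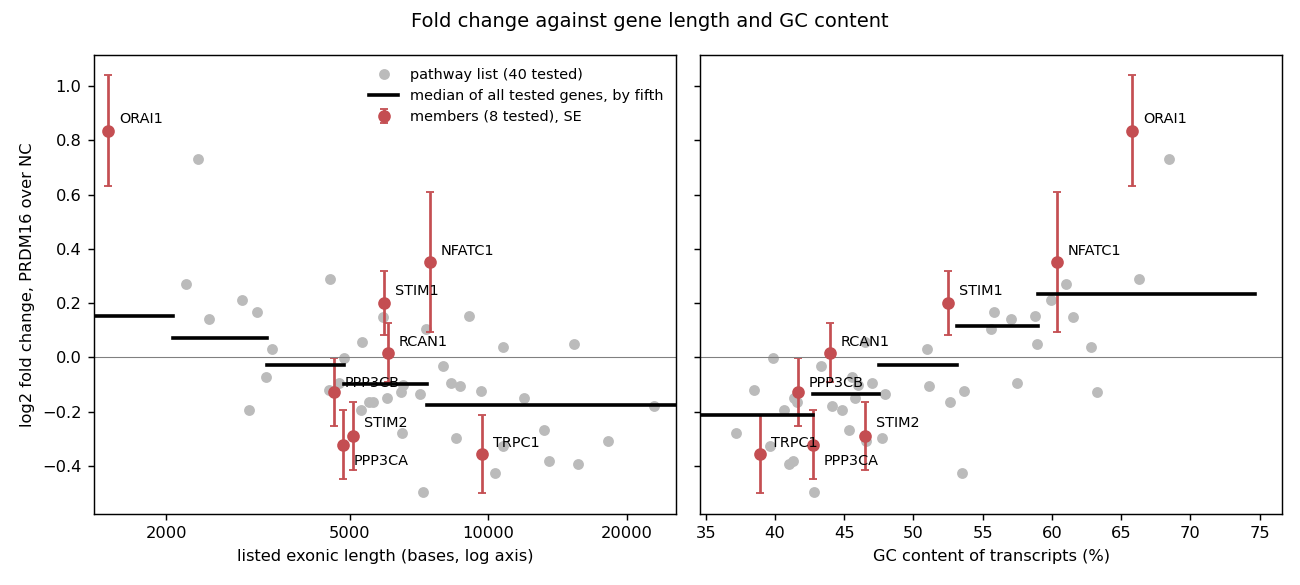
Log2 fold change, PRDM16 over NC, against listed exonic length (left, log axis) and GC content of transcripts (right) for the 8 tested members (red, bars are SE) and 40 tested pathway genes (grey); black lines are the medians of all tested genes in each of 5 classes. Members richer in GC sit higher on the right, and on the left NFATC1 and TRPC1, both long, lie far apart.

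Levels can be compared between genes only per length, so TPM were used for the order, which is that of the means over all 6 libraries. RCAN1 was the most abundant member, at 77.9 ± 3.71 TPM with NC and 71.7 ± 4.70 with PRDM16 (SD, n = 3), followed by STIM1 at 63.0 ± 7.26 and 66.0 ± 4.60 TPM. RCAN1 exceeded STIM1 in 6 of 6 libraries although their ranges overlapped. A wide gap followed, to PPP3CA (21.0 ± 3.84 and 15.2 ± 1.90 TPM) and PPP3CB (19.6 ± 1.99 and 16.2 ± 1.95 TPM), which did not differ beyond their spread and were in the opposite order in the PRDM16 means. Next came STIM2 (12.8 ± 2.08 and 9.51 ± 0.940 TPM), ORAI1 at the scaffold (6.74 ± 2.00 and 10.9 ± 1.15 TPM) and TRPC1 (7.86 ± 2.19 and 5.56 ± 0.716 TPM), each overlapping its neighbour. Their order differed within groups, with TRPC1 above ORAI1 in the NC means and ORAI1 above STIM2 in the PRDM16 means. NFATC1, at 0.437 ± 0.0498 and 0.512 ± 0.0923 TPM, lay apart from the rest.

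Within each protein family the members held very different shares of the summed TPM. STIM1 made up 85.5%, 79.2% and 84.3% of the STIM transcripts in the NC replicates and 88.2%, 87.1% and 86.9% in the PRDM16 replicates. The groups did not overlap, and the STIM1 to STIM2 ratio was 5.03 ± 1.09 with NC and 6.96 ± 0.453 with PRDM16 (SD, n = 3). The mean share of STIM1 was 4.41 percentage points higher with PRDM16, and 2.50 points higher without NC replicate 2. ORAI1, both places summed, made up 8.30%, 5.67% and 5.36% of the ORAI transcripts with NC and 10.2%, 9.28% and 9.005% with PRDM16, again without overlap. Most of the rest was ORAI3, a paralogue that forms mixed channels with ORAI1, at 82.0% ± 1.32 with NC and 80.7% ± 0.256 with PRDM16.

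The catalytic subunits of calcineurin were nearly even, with PPP3CA at 36.7% ± 2.95 with NC and 32.5% ± 2.99 with PRDM16 (SD, n = 3), PPP3CB at 34.4% ± 1.31 and 34.6% ± 2.34, and PPP3CC, the third catalytic subunit, at 28.9% ± 3.02 and 32.9% ± 0.961. The groups overlapped for the first 2 and not for PPP3CC. The difference in the PPP3CA share, PRDM16 minus NC, was -4.23 percentage points, -2.55 without NC replicate 2 and -2.54 without PRDM16 replicate 2. NFATC1 was a small part of the calcineurin-responsive NFAT factors, at 4.67% ± 0.414 with NC and 6.45% ± 1.49 with PRDM16, a difference of 1.78 percentage points that was 0.962 without PRDM16 replicate 1. NFATC3 made up 91.0% ± 0.785 and 90.1% ± 1.45. Among the TRPC channels TRPC1 held 65.1% ± 2.89 with NC and 60.5% ± 2.34 with PRDM16, and TRPC4 held nearly all the rest, at 31.8% ± 2.09 and 36.7% ± 1.57. The shares of ORAI2, NFATC1, NFATC2 and TRPC4 also did not overlap between the groups. For single genes, groups did not overlap by CPM in 21.0% of all genes tested. How often shares of other gene families do not overlap was not counted. No test was made of any of these shares, and the GC trend was not removed from them.

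**Figure D4:**
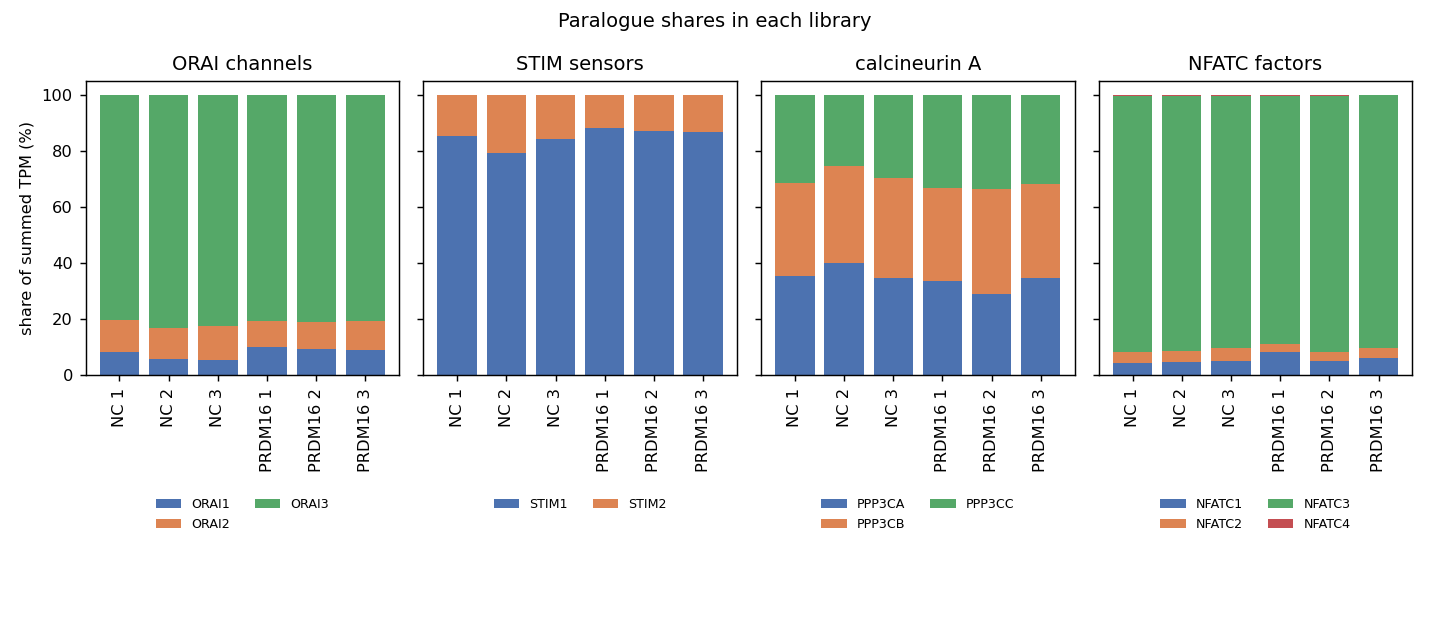
Share of the summed TPM (vertical axis, %) held by each paralogue of the ORAI, STIM, calcineurin and NFATC families in each of the 6 libraries. STIM1, ORAI3 and NFATC3 hold most of their families in every library, and calcineurin is split in 3.

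The wider pathway was read from 47 other genes in 9 groups, of which 40 listings could be tested. In edgeR 0 passed in either direction, and DESeq2 and limma-voom called 0 as well. With an unadjusted p under 0.05, 3 were higher and 5 lower (9.23% and 6.76% of all genes tested). Of the 40, 13 lay above 0 and 27 below, and of all genes tested 7211 and 8170. The median log2 fold change of the 40 was -0.11, and 0.01 with the length and GC trend removed. For each tested member the gene nearest in pattern among the members and this list was found by the root mean square difference of log2 CPM over the 6 libraries, each gene centred on its mean, among 47 candidates. It was PLCB4 for TRPC1 (0.048), PLCG1 for STIM1 (0.056), SARAF for PPP3CB (0.066), PPP3CC for RCAN1 (0.075), ORAI3 for NFATC1 (0.17) and FZD9 for ORAI1 (0.32). These distances have no background over all genes beside them.

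The entry side of the pathway, from channels to the store, was read first. Among the other TRPC channels, TRPC4 had a mean of 10.6 ± 1.77 CPM in the NC group and 10.3 ± 1.10 in the PRDM16 group (SD, n = 3), TRPC5 had at most 2 counts and TRPC7 had 0 in every library. ORAI3 had 65.6 ± 3.74 and 79.2 ± 7.53 CPM, with all PRDM16 libraries above all NC libraries, and so did CRACR2B, a relative of the ORAI regulator CRACR2A, with 19.1 ± 1.71 and 23.3 ± 3.10 CPM. Their log2 fold changes, 0.27 ± 0.11 (SE) and 0.29 ± 0.13, were each 0.04 with the length and GC trend removed. ORAI2 was at 45.4 ± 4.27 and 46.6 ± 1.54 CPM. Of the receptors that release calcium from the store, ITPR3 was abundant, at 554 ± 64.9 and 617 ± 24.6 CPM, and ITPR2 had 47.0 ± 11.2 and 36.1 ± 5.54 CPM (log2 fold change -0.38 ± 0.16, and -0.16 without NC replicate 2). The phospholipases PLCE1, mutated in inherited nephrotic syndrome, and PLCB4 had log2 fold changes of -0.31 ± 0.13 and -0.32 ± 0.14, and of -0.12 and -0.05 with the length and GC trend removed.

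On the calcineurin side the other tested subunits did not pass. PPP3R1, the regulatory subunit, was at 104.7 ± 6.76 CPM in the NC group and 91.5 ± 3.90 in the PRDM16 group (SD, n = 3). Its groups did not overlap, with PRDM16 lower, as in 8.77% of all genes tested. Its log2 fold change was -0.19 ± 0.11 (SE; edgeR adjusted p = 0.348), and -0.06 with the length and GC trend removed. PPP3CC had 30.3 ± 1.65 and 31.5 ± 1.78 CPM. The anchoring protein AKAP5 and the inhibitor RCAN3 had log2 fold changes of -0.28 ± 0.16 (SE) and -0.13 ± 0.13. Among the NFAT factors, NFATC3 had 19.4 ± 0.576 and 18.0 ± 0.678 CPM, NFATC2 had 1.41 ± 0.150 and 1.04 ± 0.120 CPM, and NFATC4 had 1 count in each library. NFAT5, which answers to salt stress and not to calcineurin, had 93.9 ± 21.0 and 71.5 ± 8.70 CPM (log2 fold change -0.39 ± 0.14, and -0.19 without NC replicate 2). In NFATC2, NFATC3 and NFAT5 every PRDM16 library lay below every NC library, as in 8.77% of all genes tested. With the length and GC trend removed their log2 fold changes were -0.38, 0.03 and -0.12.

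Of the 5 tested kinases that put phosphate back on NFAT, 1 lay above 0, GSK3A, and 4 below. Their median log2 fold change was -0.16, and 0.03 with the length and GC trend removed. GSK3B was at 107 ± 12.8 CPM in the NC group and 88.7 ± 2.40 in the PRDM16 group (SD, n = 3), and GSK3A had 117 ± 10.3 and 135 ± 9.61 CPM. Of the 3 tested genes that respond to NFAT, 2 lay above 0 and 1 below. Their median log2 fold change was 0.17, and 0.07 with the length and GC trend removed. The 2 above were PLAUR, the urokinase receptor, with 122 ± 7.76 and 136 ± 11.7 CPM, and FZD9, a Wnt receptor. FZD9 had 0.879 ± 0.304 and 1.44 ± 0.293 CPM, from 13 to 74 counts per library. The log2 fold changes were 0.17 ± 0.11 (SE) for PLAUR and 0.73 ± 0.28 for FZD9, and neither passed (edgeR adjusted p = 0.412 and 0.298).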

How the data were processed

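The authors deposited raw read counts, TPM and FPKM for each gene and library, per the file headers, and the submitters' processing notes name hg38. How reads were aligned and counted, with or without strand, is not given in the sources used here. In each library the deposited TPM sum to 1000000. The lines of 7 genes were broken and were rejoined. Samples were grouped by title.

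The main test was edgeR 4.0.16 (R 4.3.3, quasi-likelihood, robust, TMM factors) after its default filter (minimum count 10, minimum total 15), with Benjamini-Hochberg adjustment over all 15381 genes left and a threshold of 0.05; the script was tested on simulated data. SE were derived from the F statistics. Trends were removed with offsets, fitted per library by natural splines (5 degrees of freedom) of log2 length and of GC content (median of GENCODE transcripts, known for 90.3% of tested genes). Alternatives were DESeq2 1.42.0, limma 3.58.1 (voom; log2 of TPM plus 1 or 0.1, mean TPM at least 0.5), other size factors, no filter, chromosomes only, summed listings, a replicate block and each library left out. The limit of 3 counts for a gene at 0 covers counting error only. Pathway genes were named by 1 rule: the 2 with the smallest p in each of 9 groups, among those with a median of at least 1 TPM, and all relatives of a member. Members, lists and rule were chosen with earlier results of these data known. Some genes of these lists are not reported here.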

Additional observations from a re-analysis of the deposited data

How the results depend on the processing

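Of the members' log2 fold changes under the alternatives, 3 changed sign: PPP3CB was at 0.038 with the length and GC trend removed, and RCAN1 at -0.12 in both limma fits on log2 TPM, where the median of all genes moved to -0.13 (plus 1) and -0.15 (plus 0.1). The count of members that passed, 0, was 1 (ORAI1) with no filter on low counts, and ranged from 0 to 1 over the fits that leave out 1 library, being 1 without NC replicate 3 and without PRDM16 replicate 2. The count of pathway genes that passed was 0 in every alternative run. The median log2 fold change of the tested members was -0.0088 with the length trend removed, 0.10 with the length and GC trend removed, -0.12 on chromosomes only, where ORAI1 is lost, and -0.26 on log2 TPM plus 1, where NFATC1 is lost. All genes that passed numbered 10, and 107 with no filter, 46 with DESeq2, 5 with the length and GC trend removed, 17 on chromosomes only and 18 with listings summed, and 7 to 173 without 1 library (173 without NC replicate 3, 59 without PRDM16 replicate 2, 20 without PRDM16 replicate 1). The share of ORAI1 among the ORAI channels differed by 1.71 percentage points between groups in raw counts, where length is not divided out, against 3.04 in TPM. Same-numbered libraries of the groups did not deviate together (correlations 0.09, -0.10 and -0.13), so no pairing was used; with a replicate block 10 genes and 0 members passed, and ORAI1 was at 0.87 (edgeR adjusted p = 0.119). Depth limits NFATC1 and NFATC2, at 58 counts or fewer per library, and FZD9, at 74 or fewer.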
